A study of Homo sapiens with 4 samples.

Results

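The 48 genes described here encode the machinery that licenses replication origins, unwinds and copies DNA and supplies its nucleotides. They were chosen by name, as the rows carrying these gene identifiers among the 26485 identifiers of the deposited tables, and all 48 had a row in every library and a mean above 1 TPM. RNA came from SW1736 and 8505C, 2 human lines of anaplastic thyroid cancer, an undifferentiated tumour, each given 1.5 µM DHT or vehicle (DMSO) for 24 h. DHT is dihydrotanshinone, per the series title, and not the androgen of that abbreviation. The groups were SW1736 with DHT, SW1736 with DMSO, 8505C with DHT and 8505C with DMSO, with 1 library each and no further allele or agent in the labels. No difference within a line therefore has a replicate check, and it stands as a difference between a pair of libraries.

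Replication begins in G1, when the origin recognition complex (ORC) with CDC6 and CDT1 loads the ring of MCM2 to MCM7 onto DNA, a step called licensing that geminin blocks after S phase has started. The kinase of CDC7 and DBF4 then helps CDC45 and the GINS complex to join the ring, which becomes the replicative helicase. Polymerases, the sliding clamp PCNA and enzymes of nucleotide synthesis follow, and many of these genes are transcribed late in G1 under E2F factors, so their mRNAs are common markers of proliferating cells. In bulk RNA, fewer cells in S phase and less of these mRNAs per cell cannot be told apart.

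Aligned sequence, worked out from coverage and FPKM, came to 3.85 Gb with DHT and 3.67 Gb with DMSO in SW1736, and to 4.14 and 3.26 Gb in 8505C. Mean read depth over a member was at least 10.6 (the lowest of the 48, SW1736 with DHT). The tables hold no read numbers, which leaves the counting error unknown. All 4 libraries carried at least 402.5 TPM each of the cytokeratins KRT7, KRT8 and KRT18, whereas EPCAM and CDH1 were near 0. Of the thyroid genes, TSHR was listed at 0, TG was at 0.0587 TPM or less, PAX8 and FOXE1 were found in SW1736 and NKX2-1 in 8505C. Of 6 immune markers, CD14 and CD68 reached a mean of 1 TPM, and CD3E was listed at 0. The summed immune markers, mostly CD68, were at 23.3 TPM with DHT and 15.4 with DMSO in SW1736, and at 67.4 and 50.9 TPM in 8505C. PTPRC was at 0.0498 TPM or less. The summed fibroblast markers were at 146 TPM with DHT and 351 with DMSO in SW1736, nearly all COL1A1, and at 1.16 and 0.767 TPM in 8505C. Endothelial markers summed to 207 TPM with DHT and 171 with DMSO in 8505C, and to 0.118 and 0.0427 TPM in SW1736. The sum in 8505C was nearly all CDH5 and TIE1, while PECAM1 was at 0.207 TPM or less and VWF and KDR at 0. The part of these markers in the results below was not tested.

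With DHT, replication mRNAs had lower TPM in SW1736 and were nearly level in 8505C. The 48 members together held 4391 TPM with DHT and 6356 with DMSO in SW1736, and 5445 and 5624 TPM in 8505C. Folds are given as differences of log2(TPM + 1), where the added 1 shrinks those of weakly expressed genes. The median log2 fold of the members in SW1736 was -0.75, beside -0.42 for all 11723 protein-coding genes that averaged 1 TPM or more. In SW1736 47 members lay below 0 (97.9%, beside 77.8% of all genes), and 11 were at least 2-fold lower (22.9%, beside 15.6%). No member was 2-fold higher in SW1736, where 2.78% of all genes were.

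**Figure D1:**
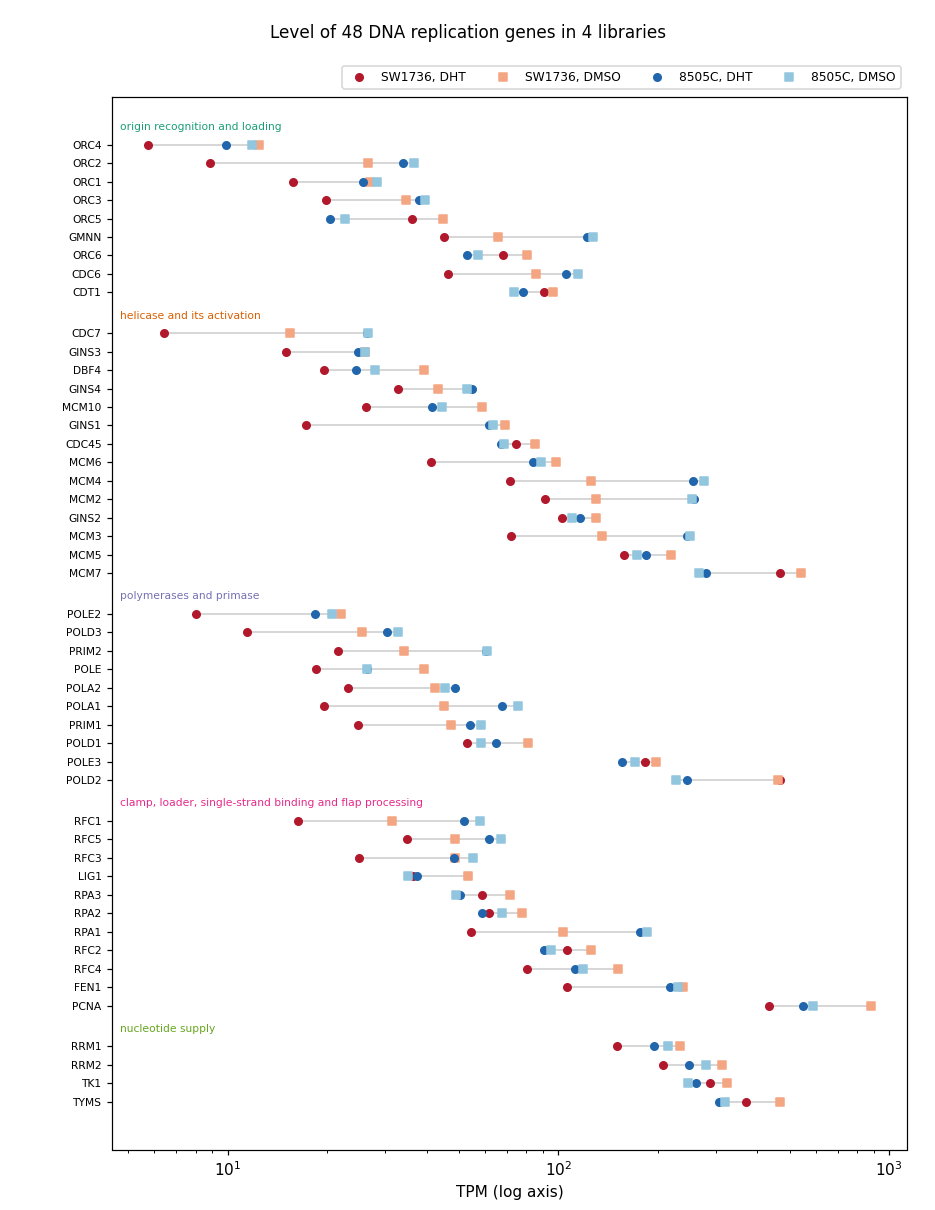
Level of each of the 48 members in TPM (log axis, horizontal) in the 4 libraries, 1 point per library, with the grey bar spanning the lowest to the highest; genes are grouped by role and ordered within a role by the DMSO library of SW1736. The SW1736 DHT points lie left of the SW1736 DMSO points for 47 of 48 genes, while the 8505C points mostly lie close together.

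The median gene of SW1736 stood at -0.42 itself, so the members were also set against it. Centred on the median gene of that line, 2 members were 2-fold lower, GINS1 and ORC2 (4.17%, beside 4.23% of all genes), so the members' count at 2-fold was then near the background. Their median was -0.33 after centring, and 34 members lay below 0 (70.8%, beside 50% of all genes by construction). The 14 members above the median gene were ORC5, ORC6, CDT1, MCM7, CDC45, GINS2, GINS4, POLD2, POLE3, RFC2, RPA2, RPA3, TYMS and TK1, so statements below that these were lower hold for TPM and not for the centred values. At 1.5-fold, without centring, 28 members were lower (58.3%, beside 38.2%). With FPKM in place of TPM, the median was -0.51, 42 members lay below 0 (87.5%, beside 65.4%) and 4 were 2-fold lower (8.33%, beside 6.01%). None was 2-fold higher when centred (4.72% of all genes were) or with FPKM (2.93%), and none was 1.5-fold higher (4.7%). Ribosomal protein mRNAs, whose share bears on every other TPM, made up 22.6% of the TPM of SW1736 with DHT and 17.2% with DMSO, and 18.5% and 18.4% in 8505C. With TPM rescaled without them, 9 members were 2-fold lower in SW1736 (18.8%, beside 13.1% of all genes), and their part in the members' differences was not tested otherwise.

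In 8505C no member was 2-fold away in either direction, where 0.162% of all genes were lower and 0.273% higher, nor was any 1.5-fold away (0.529% and 1.27%). The members lay between -0.25 for ORC4 and 0.14 for POLD1, and 26 of them within 0.1 of 0. Their median was -0.07, beside -0.03 for all genes, and 36 lay below 0 (75%, beside 57%). These 36 were below 0 in both lines, as 48.5% of all genes were. After centring, 26 were (54.2%, beside 31.1%). The difference between the lines' responses has no residual to test it with 1 library per group.

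**Figure D2:**
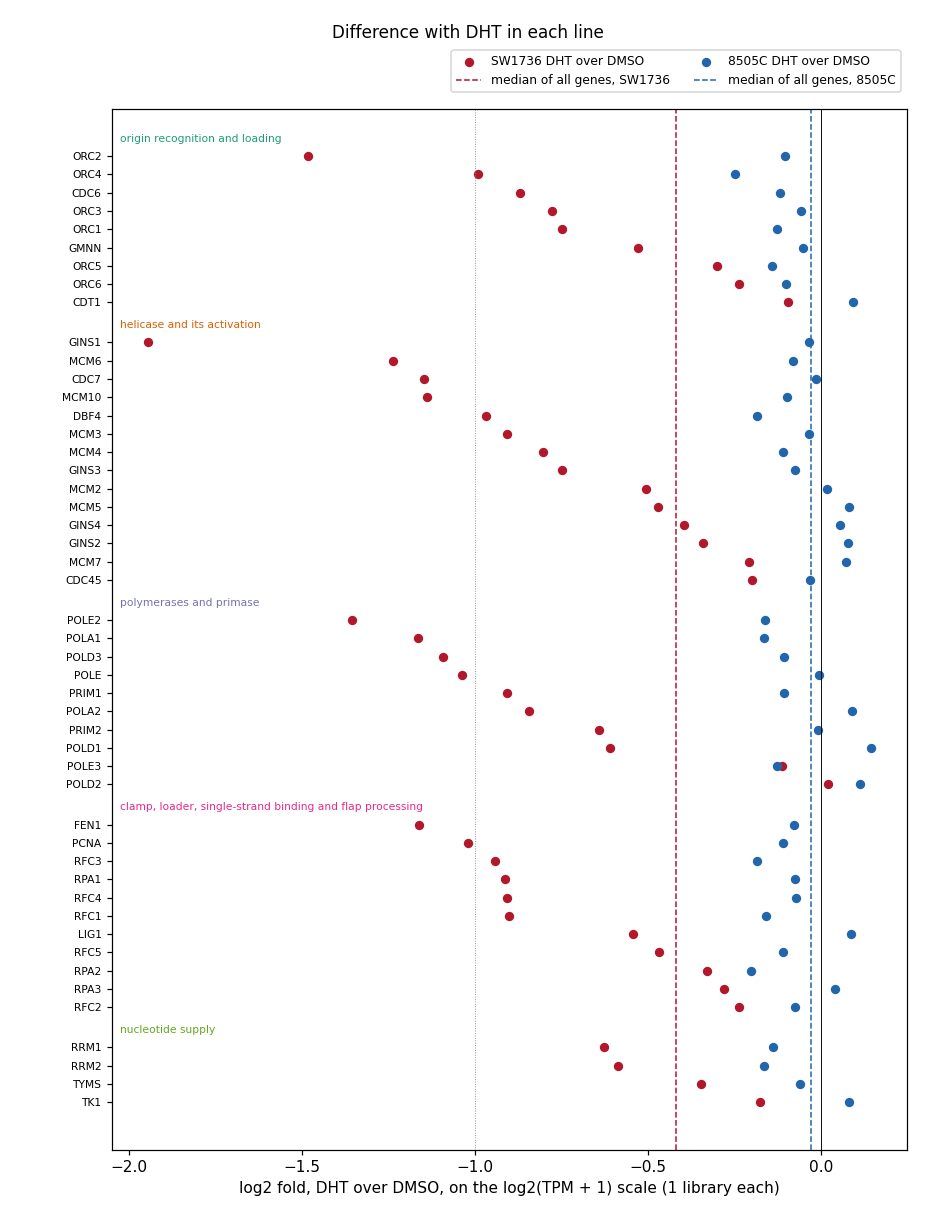
Log2 fold of each member, DHT over DMSO, in SW1736 (red) and 8505C (blue), with dashed lines at the median of the 11723 genes tested in each line and a dotted line at a 2-fold lower level. SW1736 points run from -1.94 (GINS1) to 0.02 (POLD2), and 8505C points stay between -0.25 and 0.14.

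Treatment over both lines was then fitted with limma, with the line as a term and 1 residual degree of freedom, the disagreement between the lines. In the main setting limma's prior degrees of freedom were infinite. Each standard error therefore came from a variance trend pooled over all genes, and a gene's own disagreement between the lines had no weight in it. This fit called 0 of the 48 members at an adjusted p under 0.05, where 0.205% of all genes were called lower and 0.81% higher. At an unadjusted p under 0.05 there were 9 members, all lower, beside 6.71% of all genes. That number was 1 of 48 when centred (beside 6.46% of all genes) and 3 with FPKM (beside 4.58%). It was 2 without the variance trend (beside 6.19%) and 0 without a filter on low genes (beside 1.47%). In the other settings it was 5 to 11, beside 4.94% to 7.07% of all genes. GINS1 had the smallest adjusted p, with a log2 fold of -0.99 ± 0.31 (standard error) and an adjusted p of 0.108 by limma. PCNA followed at -0.56 ± 0.18 (adjusted p = 0.15), then FEN1 at -0.62 ± 0.21 (adjusted p = 0.196, both by limma). All 3 were lower with DHT in each line, but chiefly in SW1736. Their log2 folds there were -1.94 for GINS1, -1.02 for PCNA and -1.16 for FEN1. In 8505C they were -0.03, -0.11 and -0.08, where the median of all genes was -0.03.

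Promoters of the members that stood lowest in SW1736 among the loading, helicase and clamp genes are shown next, as the 200 bases before each RefSeq start (GRCh38.p14, gene strand, 5′ to 3′). Capitals mark matches on either strand to the E2F motifs TTTCGCGC, TTTGGCGC and TTTCCCGC, to the CCAAT box bound by NF-Y, and to the cell cycle element TTTGAA (CHR). GINS1 lies on chr20:25407473-25407672 (plus strand), MCM6 on chr2:135876444-135876643 (minus), ORC2 on chr2:200963661-200963860 (minus), ORC4 on chr2:148021552-148021751 (minus), FEN1 on chr11:61792711-61792910 (plus) and PCNA on chr20:5126623-5126822 (minus).
GINS1: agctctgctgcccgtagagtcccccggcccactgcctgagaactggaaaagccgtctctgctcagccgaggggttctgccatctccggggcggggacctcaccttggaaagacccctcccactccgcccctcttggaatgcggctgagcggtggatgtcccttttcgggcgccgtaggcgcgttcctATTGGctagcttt
MCM6: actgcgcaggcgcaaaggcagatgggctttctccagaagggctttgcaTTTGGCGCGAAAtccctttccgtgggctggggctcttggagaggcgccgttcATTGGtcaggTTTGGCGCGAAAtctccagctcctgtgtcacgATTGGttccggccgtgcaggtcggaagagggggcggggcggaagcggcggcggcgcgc
ORC2: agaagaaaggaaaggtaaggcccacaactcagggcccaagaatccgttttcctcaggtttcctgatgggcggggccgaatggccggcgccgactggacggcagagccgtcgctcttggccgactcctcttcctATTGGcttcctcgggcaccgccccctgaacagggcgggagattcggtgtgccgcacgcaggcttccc
ORC4: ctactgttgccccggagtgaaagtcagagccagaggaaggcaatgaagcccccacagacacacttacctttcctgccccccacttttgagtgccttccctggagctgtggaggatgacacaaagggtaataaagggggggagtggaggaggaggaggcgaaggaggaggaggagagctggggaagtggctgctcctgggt
FEN1: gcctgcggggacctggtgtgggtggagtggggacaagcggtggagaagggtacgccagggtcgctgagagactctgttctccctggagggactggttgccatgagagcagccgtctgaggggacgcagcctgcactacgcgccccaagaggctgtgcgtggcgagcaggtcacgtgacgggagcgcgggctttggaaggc
PCNA: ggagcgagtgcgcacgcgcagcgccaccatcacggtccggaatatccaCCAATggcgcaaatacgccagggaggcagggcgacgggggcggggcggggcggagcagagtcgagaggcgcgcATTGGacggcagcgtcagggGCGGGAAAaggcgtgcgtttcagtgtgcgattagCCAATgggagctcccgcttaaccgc

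MCM6 carried 2 copies of a run in which TTTGGCGC overlaps TTTCGCGC of the opposite strand, beginning 152 and 90 bases before the start, with 2 inverted CCAAT boxes. PCNA carried an inverted TTTCCCGC beginning 59 bases before the start and 3 CCAAT boxes, GINS1 and ORC2 1 inverted CCAAT box each, and the ORC4 and FEN1 windows held no match to these letters. The FEN1 window lies inside the deposited FEN1 row, which starts at 61792637, and the ORC4, ORC2 and MCM6 windows run partly into their rows. Matches therefore depend on the start chosen, and other starts were not searched. Of the 42 members matched to the promoter table, 13 had an E2F motif in the 250 bases before the start (31.0%, beside 3.21% of 15843 protein-coding promoters). MCM4, MCM5, GINS4, POLD3, RPA2 and RPA3 were not matched. CCAAT stood in 22 of the 42 (52.4%, beside 34.5%) and TTTGAA in 1, RRM1 (2.38%, beside 10.8%). The 13 members with an E2F motif had a median log2 fold of -0.84 in SW1736 and those without had -0.75, with ranges that overlap almost throughout (-1.24 to -0.09, and -1.94 to 0.02).

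Among the genes of origin recognition and loading, ORC2 differed most with DHT in SW1736. ORC2, an ORC subunit (chromosome 2), stood at 8.85 TPM with DHT and 26.5 with DMSO in SW1736, a log2 fold of -1.48, and at 33.9 and 36.6 TPM in 8505C. The other ORC subunits of SW1736 were ordered from ORC4 (-0.99), ORC3 (-0.78) and ORC1 (-0.75) to ORC5 (-0.30) and ORC6 (-0.24), so subunits of one complex differed in fold. This order changed with linear trends on mRNA length and GC content removed, as described below. ORC2 was then at -0.89, ORC1 at -0.38, ORC3 at -0.35, ORC4 at -0.22, ORC6 at -0.03 and ORC5 at 0.02. ORC1, the subunit whose protein is degraded after G1 in human cells, had 15.7 TPM with DHT and 27.0 with DMSO in SW1736, against 25.8 and 28.2 in 8505C. ORC4 was the lowest expressed member, at 5.76 TPM with DHT and 12.4 with DMSO in SW1736, and its row overlaps ACVR2A and MBD5 on the opposite strand.

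The licensing factors and their inhibitor differed by unequal amounts in SW1736. CDC6, the ATPase that recruits the ring with ORC, had 46.3 TPM with DHT and 85.4 with DMSO (-0.87), and in 8505C 105 and 114 TPM. CDT1, the ring's chaperone, was nearly level, at 90.5 and 96.7 TPM in SW1736 (-0.09) and 78.1 and 73.2 in 8505C (0.09). Geminin (GMNN), which binds and inhibits CDT1, had 45.2 TPM with DHT and 65.5 with DMSO in SW1736 (-0.53), and 122 and 127 TPM in 8505C. The TPM ratio of CDT1 to GMNN was 2.00 with DHT and 1.48 with DMSO in SW1736, and 0.638 and 0.576 in 8505C. By TPM, CDT1 mRNA thus exceeded GMNN mRNA in both SW1736 libraries and was below it in both 8505C libraries. By mean read depth CDT1 was above GMNN in 8505C as well, at 143.9 and 88.8 with DHT and 104.5 and 71.5 with DMSO. The order of these mRNAs in 8505C therefore depends on the measure.

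The helicase genes held the member farthest from its vehicle level. GINS1, a subunit of GINS (chromosome 20, 25407687 to 25448555 in the deposited hg38 table), had 17.2 TPM with DHT and 69.1 with DMSO in SW1736, a log2 fold of -1.94 that 0.486% of all genes lay below. In 8505C it stood at 61.8 and 63.3 TPM. The other GINS genes were less low in SW1736, with GINS3 at -0.75, GINS4 at -0.40 and GINS2 at -0.34. GINS2 had 103 TPM with DHT and 130.3 with DMSO there, so the ratio of GINS2 to GINS1 was 5.97 with DHT and 1.89 with DMSO. In 8505C that ratio was 1.88 with DHT and 1.73 with DMSO.

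The MCM ring genes, whose products assemble in equal numbers, had unequal mRNA levels. MCM6 had 41.2 TPM with DHT and 98.5 with DMSO in SW1736 (-1.24), and 83.9 and 88.8 TPM in 8505C. MCM7 had 468 and 540.5 TPM in SW1736 (-0.21), and 280.3 and 266 TPM in 8505C. The highest MCM2 to MCM7 gene exceeded the lowest 11.4-fold with DHT and 5.49-fold with DMSO in SW1736, and 3.34-fold and 3.11-fold in 8505C. MCM3 (-0.91), MCM4 (-0.80), MCM2 (-0.50) and MCM5 (-0.47) lay between MCM6 and MCM7 in SW1736. With trends on mRNA length and GC content removed, the ring genes kept this order but ran from -0.72 for MCM6 to 0.05 for MCM7. MCM7 overlaps AP4M1 on the opposite strand and holds MIR106B, MIR93 and MIR25, so reads could be shared there.

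Of the genes other than GINS that activate the helicase, MCM10, CDC7 and DBF4 were low in SW1736 and CDC45 less so. MCM10, an activation factor, had 26.2 TPM with DHT and 59.0 with DMSO (-1.14). The kinase gene CDC7 had 6.42 and 15.4 TPM (-1.15), and its activator gene DBF4 had 19.5 and 39.2 TPM (-0.97). CDC45, which joins the ring with GINS, had 74.2 TPM with DHT and 85.3 with DMSO (-0.20). In 8505C these 4 genes lay between -0.18 for DBF4 and -0.01 for CDC7. DBF4 overlaps SLC25A40 on the opposite strand.

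Subunits of the same polymerase differed in their folds in SW1736. POLE2, an accessory subunit of polymerase epsilon, had 7.999 TPM with DHT and 22.0 with DMSO (-1.36), POLE, the catalytic subunit of the leading strand polymerase, 18.5 and 39.1 (-1.04), and POLE3, a histone-fold subunit, 183 and 197 (-0.11). For polymerase delta, which copies the lagging strand, POLD3 had 11.4 and 25.5 TPM (-1.09) and the catalytic POLD1 had 52.8 and 81.1 (-0.61). POLD2 was the only member above 0 in SW1736, with 467 TPM with DHT and 460.2 with DMSO (0.02), and in 8505C it had 246 and 227 TPM (0.11). The ratio of POLD2 to POLD3 was 40.8 with DHT and 18.1 with DMSO in SW1736, and 8.08 and 6.92 in 8505C. With trends on mRNA length and GC content removed, POLE2 was at -1.06 in SW1736, POLE at -0.44 and POLE3 at 0.19. POLD3 was then at -0.57, POLD1 at -0.38 and POLD2 at 0.17.

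The genes of polymerase alpha and primase, which lay down primers, were all below their vehicle level in SW1736. POLA1, the catalytic subunit, had 19.6 TPM with DHT and 45.2 with DMSO in SW1736 (-1.16), PRIM1 24.8 and 47.4 (-0.91), POLA2 23.2 and 42.4 (-0.84) and PRIM2 21.5 and 34.1 (-0.64). Their sum in SW1736 was 0.527 of the vehicle level, and in 8505C it was 0.96. In 8505C POLA1 was at -0.16 and POLA2 at 0.09.

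At the clamp, PCNA was the most abundant member in the DMSO libraries and among the 11 that were 2-fold lower. PCNA (chromosome 20) had 434 TPM with DHT and 881 with DMSO in SW1736 (-1.02), and 548 and 590.4 TPM in 8505C (-0.11). FEN1, the nuclease that trims flaps between lagging strand fragments, had 106 and 239 TPM in SW1736 (-1.16), and 218 and 229.6 in 8505C. LIG1, the ligase that seals those fragments, had 36.4 and 53.4 TPM in SW1736 (-0.54) and 37.5 and 35.2 in 8505C (0.09). PCNA and FEN1 have processed copies named in GENCODE 29, as do RRM2, TYMS, RPA2, RFC3, RFC5, POLD2 and DBF4, and the assignment of reads among such copies is uncertain.

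The clamp loader and the single-strand binding protein were uneven within each complex. Of the loader genes in SW1736, RFC3 (-0.94), RFC4 (-0.91) and RFC1 (-0.90), the large subunit, were lower by similar amounts, while RFC5 was at -0.47 and RFC2 at -0.24. With trends on mRNA length and GC content removed, RFC4 was at -0.73, RFC3 at -0.52, RFC1 at -0.28, RFC5 at -0.25 and RFC2 at -0.10. RPA1, the large subunit of the binding protein, had 54.5 TPM with DHT and 103.5 with DMSO (-0.91), while RPA2 had 61.8 and 77.8 (-0.33) and RPA3 had 58.7 and 71.4 (-0.28). In 8505C these 8 genes lay between -0.20 for RPA2 and 0.04 for RPA3. RFC4 overlaps EIF4A2 and RPA3 overlaps UMAD1, on opposite strands.

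Nucleotide supply was the role nearest to the median gene of SW1736, with a median log2 fold of -0.47 over its 4 genes and none at 2-fold. RRM1 and RRM2, the subunits of ribonucleotide reductase, had 151 and 208 TPM with DHT against 233 and 312 with DMSO. Their log2 folds were alike (-0.63 and -0.58), and the TPM ratio of RRM2 to RRM1 was 1.38 with DHT and 1.34 with DMSO. TYMS, thymidylate synthase, had 368 TPM with DHT and 468 with DMSO (-0.35), and TK1, the thymidine kinase of S phase, had 288 and 325 (-0.17). In 8505C RRM2 was at -0.16, RRM1 at -0.14, TYMS at -0.06 and TK1 at 0.08. TYMS overlaps ENOSF1 and TYMSOS on the opposite strand. The medians of the other roles in SW1736 were -0.75 for loading, -0.77 for the helicase, -0.88 for polymerases and -0.90 for the clamp group.

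The members' differences in SW1736 went with the length and base composition of their mRNAs, and those in 8505C with base composition. In SW1736 the log2 fold of the 48 members had a Spearman correlation of -0.44 with mRNA length and of 0.56 with GC content, across genes that share libraries and are not replicates. Over all 11360 genes with an annotated mRNA the values were -0.43 and 0.31. In 8505C the correlation with GC content was 0.65 for the members and 0.47 for all genes, although the members' folds there were small. With mRNA length it was -0.04 for the members of 8505C and -0.25 for all genes. The highest of 3 groups by GC content held 10 members. Of these, CDT1, POLA2, POLD1, POLD2, MCM2, MCM5, MCM7, LIG1 and TK1 were above 0 in 8505C, and POLE was at -0.004. The median in 8505C was 0.08 for these 10 members and 0.06 for all genes of that group. From the middle group, GINS2, GINS4 and RPA3 were above 0 as well. The medians of that group in 8505C were -0.07 for members and -0.04 for all genes.

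Within groups of similar mRNAs the median of the members lay below that of all genes in SW1736. In the shortest of 3 equal groups by mRNA length (2476 nt or less), 20 members had a median of -0.41 and all genes -0.14. In the middle group 22 members had -0.76 and all genes -0.45, and in the longest (over 4403 nt) 6 members had -1.01 and all genes -0.71. By GC content, the medians in the lowest group were -0.97 for 19 members and -0.63 for all genes, in the middle group -0.47 and -0.41, and in the highest -0.49 for 10 members and -0.22. With linear trends on both properties removed, 40 members were below 0 in SW1736 (83.3%, beside 55.2% of genes), with a median of -0.31 beside -0.06, and 2 stayed 2-fold lower, GINS1 at -1.45 and POLE2 at -1.06 (4.17%, beside 2.78%). None was then 2-fold higher (4.5% of genes were).

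**Figure D3:**
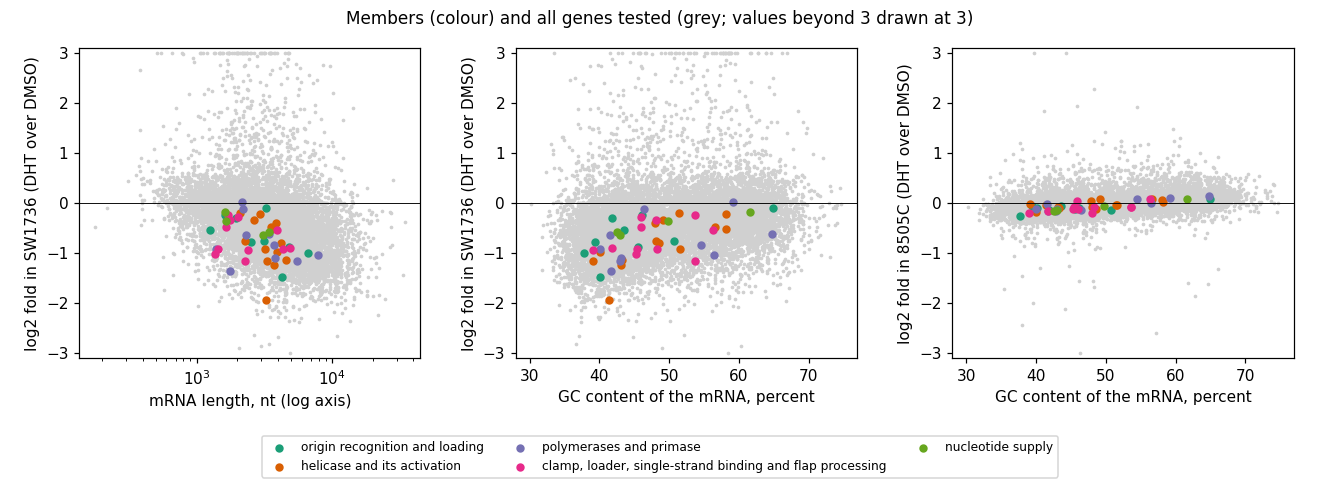
Log2 fold with DHT against mRNA length (left, log axis) and GC content in SW1736 (middle) and against GC content in 8505C (right), for members coloured by role and for 11360 genes in grey (values beyond 3 drawn at 3). Members follow the slope of the other genes, with Spearman correlations of -0.44, 0.56 and 0.65.

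Between the vehicle-treated lines the sum over the members was alike, and smaller shares of members than of all genes were 2-fold apart. The make-up of some complexes, such as the MCM ring, still differed. The members summed to 5624 TPM in 8505C and 6356 in SW1736, and their median log2 fold was -0.12, beside -0.05 for all genes, with 28 below 0 (58.3%, beside 52.9%). MCM4 was at least 2-fold higher in 8505C (2.08% of members, beside 9.97% of genes), and MCM7 and POLD2 were 2-fold lower (4.17%, beside 12.6%). When centred, 2 members were higher (beside 10.8%) and 0 lower (beside 11.6%), and at 1.5-fold 9 were higher and 4 lower (beside 18.9% and 24.2%). MCM4 had 276 TPM in 8505C and 125 in SW1736 (1.13), MCM2 253 and 130.1 (0.96), and MCM3 249.98 and 136 (0.88). MCM7 had 266 TPM in 8505C and 540.5 in SW1736 (-1.02), yet the sum over MCM2 to MCM7 was 1308 and 1250 TPM. GMNN had 127 TPM in 8505C and 65.5 in SW1736 (0.94), and ORC5 22.6 and 44.8 (-0.96).

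Setting both treatments together, limma with treatment as a term called 14 members for the line. Of these 12 were higher in 8505C, beside 18% of all genes, and MCM7 and POLD2 were lower, beside 13.4%. MCM4 had the smallest adjusted p, with a log2 fold of 1.48 ± 0.22 (standard error; adjusted p = 1.91e-10 by limma), and MCM3 stood at 1.31 ± 0.22 and RPA1 at 1.26 ± 0.23, while POLD2 was at -0.97 ± 0.19 (adjusted p = 5.11e-06 by limma). CDC6, CDC7, GINS1, GMNN, MCM2, ORC2, POLA1, PRIM2 and RFC1 were also called higher. At an unadjusted p under 0.05 there were 20 members, beside 40.1% of all genes. Without a filter on low genes limma called 0 members, with 8 at an unadjusted p under 0.05, beside 20.8% of all genes. As for treatment, the main setting took its standard errors from the variance trend alone. The smallest adjusted p of a member by limma was 0.00193 when centred and 0.000451 with FPKM. It was 0.000172 with rescaled TPM, 0.00318 without the variance trend and 0.134 without a filter. In the other settings it lay between 1.1e-11 and 9.7e-10.

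The fit averages over treatments, and some calls rest on the DHT library of SW1736. GINS1 was called higher in 8505C with a mean log2 fold of 0.83, from 1.79 with DHT and -0.12 with DMSO. ORC2 stood at 1.83 with DHT and 0.45 with DMSO. MCM4 (1.83 and 1.13), GMNN (1.42 and 0.94), MCM7 (-0.74 and -1.02) and POLD2 (-0.92 and -1.02) kept their direction in both. Between the DHT libraries, 18 members were 2-fold higher in 8505C than in SW1736 (37.5%, beside 24.7% of all genes) and none lower (beside 10.6%), where the median gene stood at 0.37. Centred on that gene, 11 were higher (22.9%, beside 14.5%) and 3 lower (6.25%, beside 16.2%). For 32 members the line difference had the same sign with DHT and with DMSO (66.7%, beside 74.4%).

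**Figure D4:**
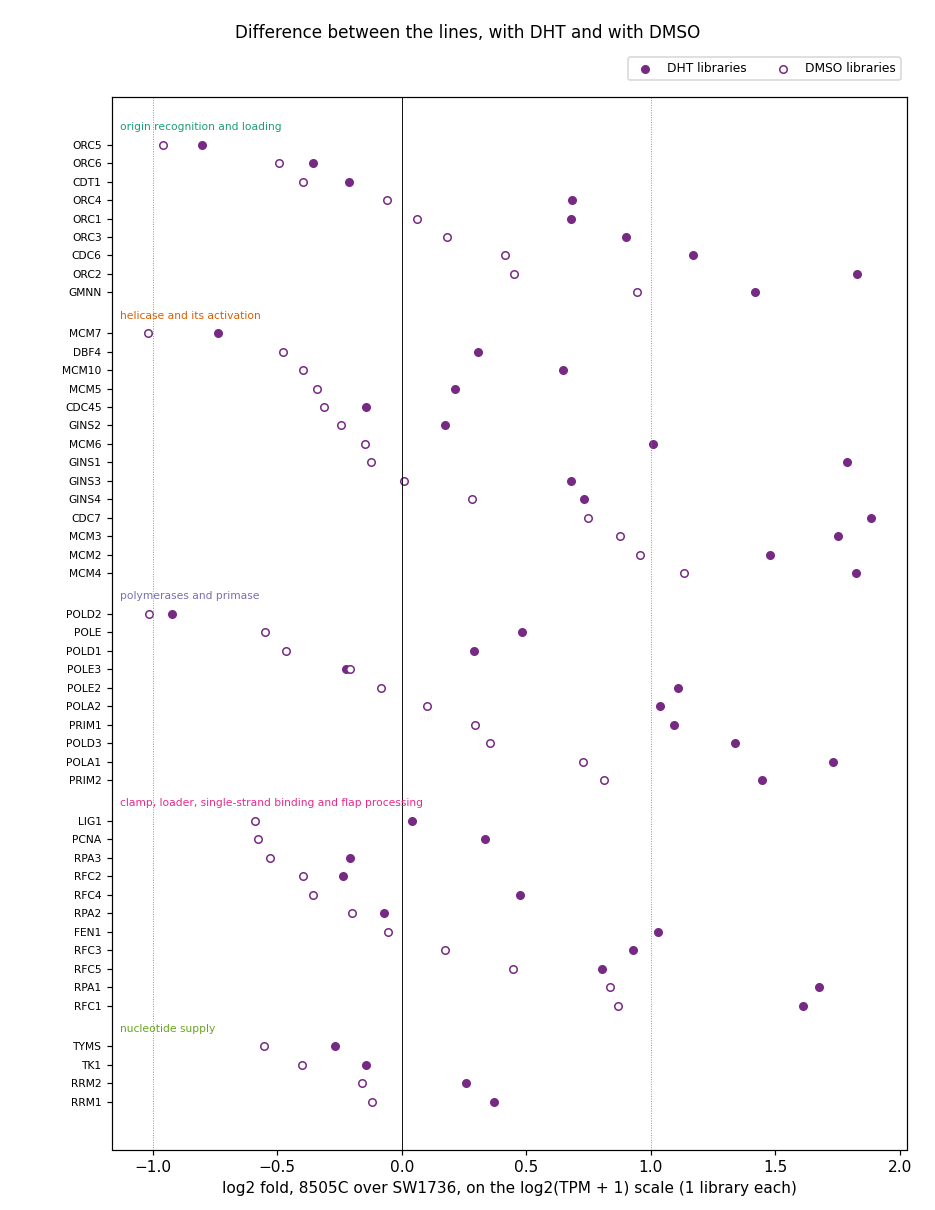
Log2 fold of each member, 8505C over SW1736, in the DHT libraries (filled) and the DMSO libraries (open), with dotted lines at 2-fold. The MCM ring spreads from -1.02 for MCM7 to 1.13 for MCM4 in the DMSO libraries, and 18 members (37.5%, beside 24.7% of all genes) lie beyond 2-fold higher in the DHT libraries.

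Among other genes of replication, the lists of the replisome, of S phase regulators and of chromatin duplication had medians near that of the members in SW1736, and the further nucleotide supply genes a median above that of all genes. Of 28 replisome and fork protection genes 11 were 2-fold lower, beside 15.6% of all genes, and none higher (median -0.88). After centring 4 were 2-fold lower, beside 4.23% of all genes, among them CLSPN, which encodes the checkpoint mediator claspin, at 7.06 TPM with DHT and 22.1 with DMSO (-1.52). TOP2A, topoisomerase II alpha, had 71.8 and 206 TPM (-1.51), TOPBP1 17.7 and 50.5 (-1.46) and WDHD1 6.32 and 19.0 (-1.45). Of 20 S phase regulators 9 were 2-fold lower (median -0.73), beside the same 15.6%, or 6 when centred, beside 4.23%. SKP2, a ubiquitin ligase subunit that targets CDKN1B, had 19.5 TPM with DHT and 87.8 with DMSO (-2.11), FBXO5 15.5 and 56.9 (-1.81), cyclin E2 (CCNE2) 8.99 and 33.8 (-1.80) and E2F2 2.28 and 9.80 (-1.72).

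Chromatin duplication genes had 2 of 10 members 2-fold lower in SW1736 (median -0.74), near the 15.6% of all genes, and 1 when centred. The 2 were the histone chaperone gene ASF1A (-1.62) and UHRF1 (-1.08), followed by HELLS (-0.85) and CHAF1A (-0.76). Of 12 further nucleotide supply genes 2 were 2-fold lower (median -0.34, or 0.08 when centred), likewise near the background, and 1 when centred. The 2 were SAMHD1, which encodes a dNTP hydrolase, at 29.5 TPM with DHT and 87.0 with DMSO (-1.53), and RRM2B (-1.31), while TK2 was at -0.77 and SHMT1 at -0.69. In 8505C none of these 70 genes was 2-fold away, and the list medians lay between -0.10 and -0.03.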

How the data were processed

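mRNA libraries were made from 1 µg of total RNA with the Universal Plus mRNA-Seq kit, per the labels' protocols. The submitters' processing notes name bcl2fastq 2.20, StringTie and the build hg38. They give no aligner, annotation or StringTie version. The authors' deposited TPM adds up to 1000000 in each library, so a gain of abundant mRNAs lowers all others. FPKM as deposited is scaled by length and mapped fragments. The deposited coverage, an unscaled mean depth per row, was used for depth and to set CDT1 beside GMNN.

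TPM was summed per identifier. Protein-coding identifiers (19083) were taken from RefSeq symbols, GENCODE 29 names and RefSeq synonyms. Folds are differences of log2(TPM + 1). With 1 library per group, counts at 2-fold replace a test. limma 3.58.1 (R 4.3.3) fitted treatment and line with a variance trend, two-sided, with Benjamini-Hochberg adjustment over all genes. It was run on simulated data in which all genes had the same spread and both lines the same response. That run could not check how the fit handles genes whose response differs between the lines. The lines' p-values rest on libraries that differ in treatment. All else used Python 3.11.15 (pandas 2.3.3, scipy 1.17.1). mRNA length and GC content come from the longest APPRIS principal transcript of GENCODE 29, or else the longest coding one. Promoters are RefSeq's.

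The members and gene lists were chosen with earlier results of these data known. Some marker genes are not reported here. All members could be named, with up to 4 genes of each other list, those with the largest fold in SW1736 at a mean of at least 5 TPM. Promoters were the 2 lowest of the loading, helicase and clamp groups, outside chromosome 8. Alternatives were other pseudocounts, filters, scalings, thresholds, gene sets and limma settings. Genes without overlap, trend removal and centring of the DHT line comparison were added after the data were seen.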

Additional observations from a re-analysis of the deposited data

Results flagged for a closer look

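For 11 members the log2 fold with DHT was below 0 in SW1736 and above 0 in 8505C (22.9%, beside 28.9% of all genes). The difference, 8505C minus SW1736, was not tested, with 1 library per group. It was 0.94 for POLA2, 0.75 for POLD1, 0.63 for LIG1, 0.55 for MCM5 and 0.52 for MCM2. It was 0.45 for GINS4, 0.42 for GINS2, 0.32 for RPA3, 0.28 for MCM7, 0.26 for TK1 and 0.19 for CDT1. Their log2 folds in 8505C lay between 0.02 and 0.14. These values are not centred, and the median gene stood at -0.42 in SW1736 and -0.03 in 8505C. When centred, CDT1 was at 0.32 in SW1736 and 0.12 in 8505C, and TK1 at 0.24 and 0.11. MCM7 was then at 0.21 and 0.10, and RPA3 at 0.14 and 0.07, so these differences changed sign. Those of the other members listed did not.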

How the results depend on the processing

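In SW1736 the count of members 2-fold lower (11) was 2 when centred on the median gene, 4 with FPKM, 28 at 1.5-fold and 2 with trends on mRNA length and GC content removed. Their median log2 fold (-0.75) was -0.33 when centred, -0.51 with FPKM, -0.63 with a pseudocount of 5 and -0.31 with trends removed. In every alternative the median stayed below 0 in SW1736 and no member was 2-fold higher. In 8505C the counts were 0 in all of them. Between the DMSO libraries, the 2 members 2-fold lower in 8505C became 0 when centred or scaled without 88 ribosomal protein genes, 1 among genes without overlap or with trends removed and 4 at 1.5-fold. The 1 member higher became 2 when centred or with trends removed and 9 at 1.5-fold. Between the DHT libraries, 18 members 2-fold higher in 8505C became 11 when centred, and 0 lower became 3, an alternative added after the data were seen. The 14 members called for the line by limma became 0 without a filter on low values, where 19083 genes were tested; treatment over both lines had 0 members called in every limma setting. No member that was 2-fold away changed sign under any alternative. Leaving out a library leaves no residual degree of freedom, so no such fit was run. Without replicates, differences of a pair of libraries have no error beyond the disagreement of the lines.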
